A study of Mus musculus with 13 samples.

Results

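The proteasome is the large protease that cuts ubiquitin-tagged proteins into short peptides. The genes of its subunits were followed in bulk RNA sequencing of interscapular brown adipose tissue (iBAT). They were taken as the protein-coding genes whose mouse symbol is Psma, Psmb, Psmc, Psmd or Psme followed by digits, with Psmb8 and Psmb9 left out, and there were 41 of them among 42416 gene identifiers. Of the 41, 39 were above 1 CPM (counts scaled to library size) in at least 5 libraries and were among the 13360 genes tested. The data came from 8 libraries labelled iFAXLKO, from mice with loxP sites on both sides of Axl and a tamoxifen-inducible Cre (Cre+), and 5 labelled WT, from mice with the same floxed Axl and no Cre (Cre-). Cre was driven by Adipoq from a bacterial artificial chromosome (Adipoq-CreERT2), a promoter of adipocytes, whereas the RNA came from the whole depot. Every mouse ate a high-fat diet (HFD) ad libitum at room temperature, and both groups received tamoxifen every 3 weeks. Age and sex are not given in the labels, and the study states that its tissue-specific knockout experiments used female mice. The comparison asks how the depot differs between Cre+ and Cre- mice on HFD.

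Libraries held 22.44 to 32.6 M counts, of which mitochondrially encoded genes took 18.33% to 21.31%, and a member that passed the filter had between 305 and 5889 reads in a library. Axl, the targeted gene (ENSMUSG00000002602, chromosome 7, 25757273 to 25788705, GRCm38), had a mean of 33.1 ± 6.16 CPM in the libraries labelled iFAXLKO and 27.8 ± 3.83 CPM in WT (SD, n = 8 and 5). Its log2 fold change was 0.25 (SE 0.13), and it did not pass either test (adjusted p 0.699 in edgeR, exact permutation p 0.102). The counts of Axl thus do not show the deletion that the label names, and each direction below rests on the labels. The counts cover the whole gene and every cell of the depot. With a fibroblast score as a covariate the log2 fold change of Axl was -0.16. All 7 markers of that score were higher in the libraries labelled iFAXLKO (median log2 fold change 0.66), so the score overlaps with group. Why Axl was not lower was not tested. The 11 brown adipocyte markers summed to at least 9508 CPM in every library, and none of them was at 0 in any. Of these markers, Adipoq, whose promoter drove Cre, was higher in the libraries labelled iFAXLKO (log2 fold change 0.66, SE 0.11, edgeR adjusted p 0.0118). Its level was above the highest WT library in 8 of 8, and the cause was not tested. WT replicate 2 stood apart from the other 12 libraries for the proteasome genes themselves, as described below, and the log2 fold changes and medians of the members that it moved are given without it as well.

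The barrel of the proteasome is made of outer alpha rings (Psma genes), which gate the entry, and inner beta rings (Psmb genes), in which Psmb5, Psmb6 and Psmb7 carry the cutting sites. A regulatory particle sits on the barrel. Its base holds 6 ATPases (Psmc genes) that unfold substrates, and its lid (most Psmd genes) removes ubiquitin. Under interferon, the cutting subunits are exchanged for Psmb8, Psmb9 and Psmb10, which makes the immunoproteasome, and the PA28 activator (Psme1 and Psme2) can take the place of the regulatory particle. Transcripts of the standard subunits are known to be raised together by the factor NFE2L1, which binds antioxidant response elements, and in brown fat NFE2L1 is known to sustain proteasome activity in the cold and in obesity. The 41 genes lie on 16 chromosomes, with Psmd10 alone on the X.

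The response element is shown in the promoters of Psmb5 and Psmb6, whose products carry cutting sites, and a CCAAT box, which is bound by the factor NF-Y, in that of the ATPase gene Psmc1. Sequences are from RefSeq on build GRCm38.p6 and end where the RefSeq or GENCODE transcript begins, whichever comes first. Distances of the motifs are counted from the RefSeq start in all of them. The sequences of Psmb5 and Psmc1 stop short of that start, where the GENCODE transcript begins. Capitals mark the motif.
Psmb5, chr14:54618023-54618195, minus strand, response element 47 bases before the RefSeq start: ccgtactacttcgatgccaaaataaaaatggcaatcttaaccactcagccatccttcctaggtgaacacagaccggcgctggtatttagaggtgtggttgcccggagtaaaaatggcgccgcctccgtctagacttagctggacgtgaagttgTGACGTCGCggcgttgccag
Psmb6, chr11:70525157-70525356, plus strand, response element 9 bases before the start: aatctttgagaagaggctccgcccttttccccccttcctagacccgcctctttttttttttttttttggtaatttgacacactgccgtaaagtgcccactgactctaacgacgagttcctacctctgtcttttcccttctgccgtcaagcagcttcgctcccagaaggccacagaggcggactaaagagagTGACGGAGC
Psmc1, chr12:100110002-100110153, plus strand, CCAAT box 175 bases before the start: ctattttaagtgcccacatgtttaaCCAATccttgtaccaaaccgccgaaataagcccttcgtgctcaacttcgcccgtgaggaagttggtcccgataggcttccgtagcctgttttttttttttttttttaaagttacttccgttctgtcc

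Promoters were matched by symbol for 34 of the 41 genes, which had 37 promoters, all of the same length. The core of the response element, TGACNNNGC on either strand, was in 6 of the 37 (16.2%), those of Psmb5, Psmb6, Psmc6, Psmd9, Psmd12 and Psme4, and in 12.4% of the 32851 mouse promoters in the table. CCAAT on either strand was in 13 of the 37 (35.1%) and in 37.4% of all promoters. On the given strand alone, the shares were 8.11% against 6.38% for the response element and 32.4% against 21.1% for CCAAT. In these windows, then, the response element core was about as frequent as in promoters at large, and CCAAT was more frequent in the members than in all promoters on the given strand, not on both. The 6 genes with the core had a median log2 fold change of -0.13 between the groups and the 27 tested genes with a promoter and without it one of -0.15. A match of these letters is a description of the sequence and says nothing of which factor is bound.

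Levels of different genes were compared per exon length, as TPM (transcript abundance scaled to gene length and library) computed from the counts. Psmb5 was the highest, at a mean of 212.2 TPM over the 13 libraries (207.7 ± 13.86 TPM in the libraries labelled iFAXLKO and 219.3 ± 28.94 TPM in WT, SD, n = 8 and 5), which put it at the 96.8 percentile of the genes tested. Psma6, an alpha subunit, followed at 192.5 TPM, then Psmb6 at 129.4, the lid subunit Psmd8 at 127.2 and Psmb2 at 127.1 TPM. The last 3 differed by less than their SD within WT, which was 17.69, 14.19 and 16.09 TPM. The order depended on the length used. With the longest annotated transcript as the length, Psmb6 was the highest at 212.6 TPM, followed by Psma6 at 193.2 and Psmb5 at 179.8 TPM. At the other end, Psmd5 and Psmd9, which help to assemble the base and are not part of the finished particle, had 7.099 and 6.371 TPM, and Psmb10 had 25.26 TPM. The 14 constitutive subunits of the barrel, which are needed in equal numbers, spanned 5.25-fold, from Psmb5 to Psma3, and 5.38-fold, from Psmb6 to Psma5, when the longest annotated transcript was used as the length. Psma8 and Psmb11 were not detectable at a level that could be tested. Psma8, the alpha subunit of the testis, had 6 reads in all, with at most 2 in a library, and Psmb11, the beta subunit of the thymic cortex, had 4, with at most 2 in a library.

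**Figure D1:**
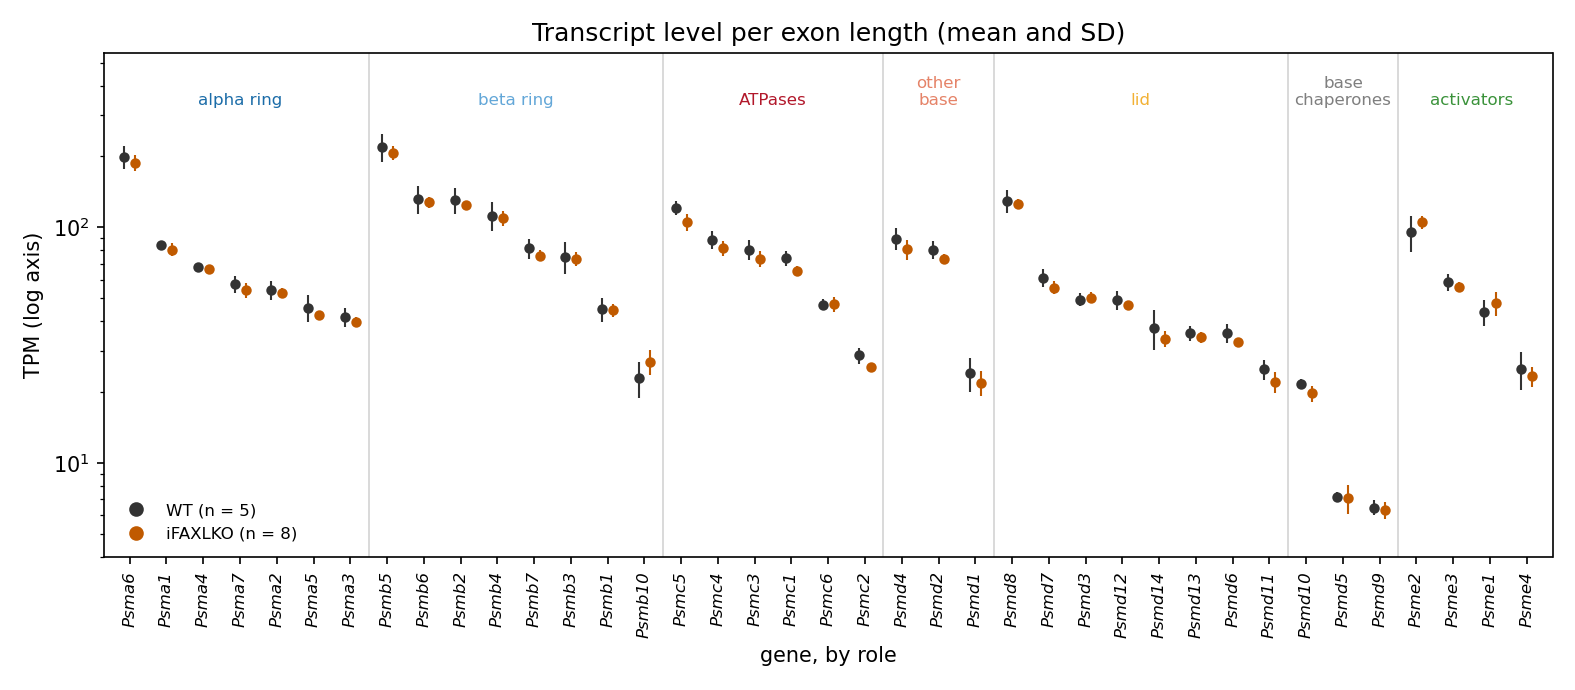
Mean and SD of the transcript level per exon length (TPM, log axis) of the 39 tested proteasome genes by role, for 5 WT and 8 libraries labelled iFAXLKO. Psmb5 and Psma6 stand highest and the base chaperones Psmd5 and Psmd9 lowest, and the distance between genes is much larger than that between the groups.

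WT replicate 2 held 38 of the 39 tested genes above their own median, where the other libraries held 5 to 28. It was the highest library for 34 of the 39, while 25.5% of all genes tested had their highest value in it. Each gene's CPM in WT replicate 2 was divided by its median over the other 12 libraries. The ratio had a median of 1.42 over the 39 genes and of 1.01 over all genes, and it was at least 1.2 in 33 of 39 members (84.6%) and in 29.1% of all genes. In the barrel, the 14 constitutive subunits all lay between 1.27 and 1.59 with a median of 1.49. The base chaperones had 1.16 to 1.37. In the ATPases the median was 1.44, with Psmc6 apart at 1.13, and in the lid it was 1.41, with Psmd11 apart at 1.07. The activators Psme3 (PA28 gamma) and Psme4 (PA200), which work in the nucleus, had ratios of 1.09 and 0.962, whereas Psme1 and Psme2 had 1.37 and 1.42.

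Summed over the members, WT replicates 1 to 5 had 2890, 3898, 2838, 2781 and 2930 CPM, and the libraries labelled iFAXLKO lay between 2676 and 2928 CPM. Without WT replicate 2 the means were 2790 ± 94.72 CPM (SD, n = 8) and 2860 ± 64.56 CPM (SD, n = 4), or 97.6% of WT. With it, the WT mean was 3067 ± 467.9 CPM (SD, n = 5) and the ratio 91.0%. The TMM factor of WT replicate 2 was the lowest of the 13, at 0.8973, and over plain library totals it had 3498 CPM where the other libraries had 2710 to 2962. WT replicate 2 thus remained the highest library under either scale, with a smaller distance on the second. Several other gene sums also had their highest value there, namely the brown adipocyte markers, at 16300 CPM where the others had 9508 to 14106, the erythroid markers, at 709.4 CPM where the others had 285.0 to 685.0, the genes of ubiquitin and its E1 and E2 enzymes, at 2160 CPM where the others had 1605 to 1906, and the proteasome assembly factors, at 1215 CPM where the others had 947.8 to 1133, whereas the 4 endothelial markers had their lowest, at 471.0 CPM where the others had 558.3 to 891.6. The part of these differences in the level of the proteasome genes was not tested. In bulk tissue, fewer cells of a type and less RNA per cell cannot be told apart.

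**Figure D2:**
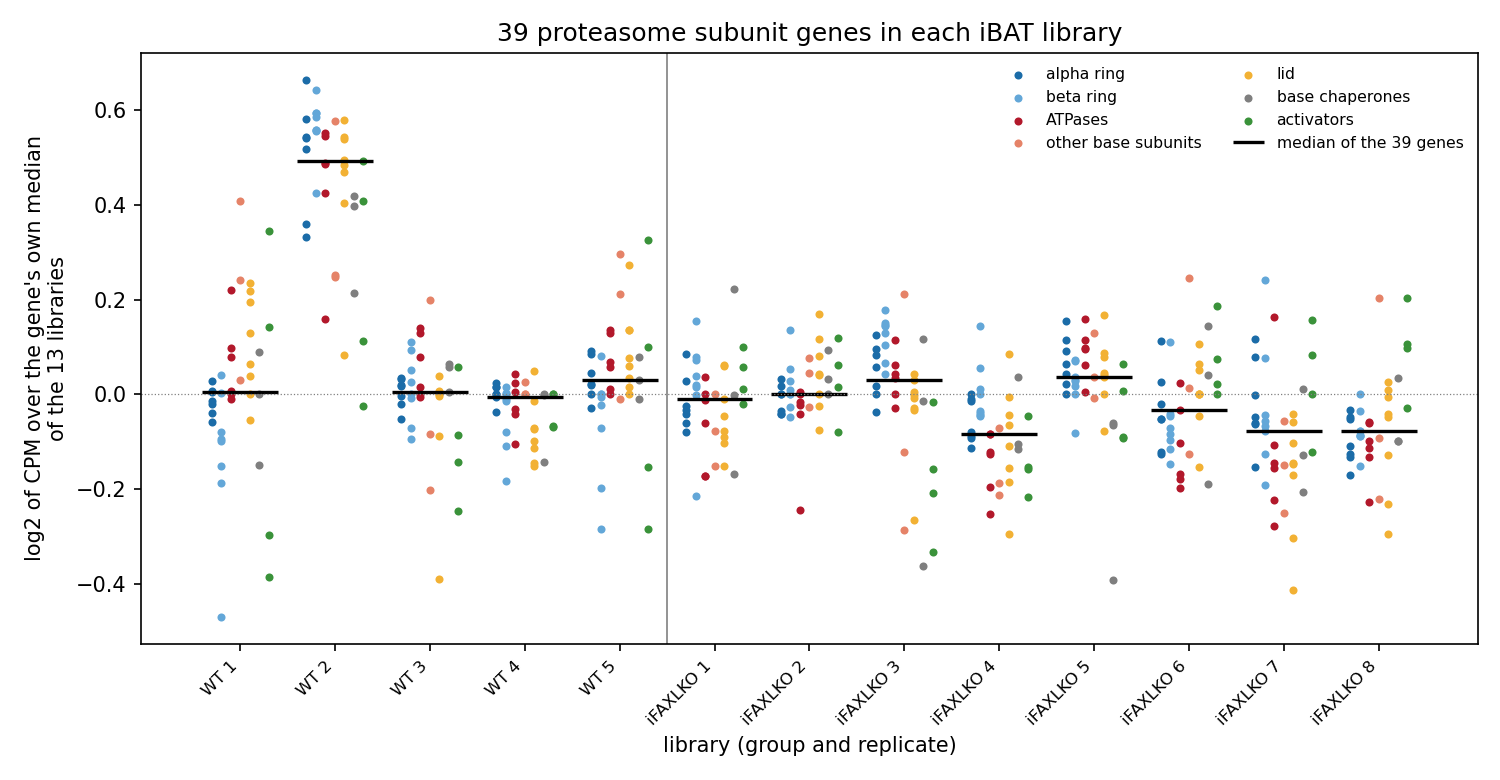
Each point is 1 of the 39 tested genes in 1 library, as log2 of its CPM over its own median of the 13 libraries, with colours for the role of the subunit and a bar at the median of the 39. Nearly all genes stand above their median in WT replicate 2, while the medians of the other 12 libraries lie close to 0.

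Apart from that library the subunits were steady. The SD of log2 CPM within the libraries labelled iFAXLKO had a median of 0.09 over the members and 0.178 over all genes, and 36 of 39 members were under the latter. In WT the medians were 0.232 and 0.228, and without replicate 2 they were 0.087 and 0.146. Psmd14, the lid enzyme that removes ubiquitin, varied most among the 4 remaining WT libraries, with an SD of 0.318, and Psma5 least, with 0.019. Among the libraries labelled iFAXLKO the SD ran from 0.044 for Psmb2 to 0.201 for Psmd5.

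Between the groups, 0 of 39 members passed an adjusted p under 0.05 in edgeR, where 17 genes (0.127% of those tested) did, 0.0299% lower and 0.0973% higher in the libraries labelled iFAXLKO and 0.0898% also past a 2-fold change. DESeq2 called 0 of 39 as well, with 0.501% of all genes, and limma-voom 0 of 39, with 0.172%. The lowest adjusted p of a member was 0.49 in edgeR, 0.231 in DESeq2 (both Psmc1) and 0.319 in limma-voom (Psmb10). At an unadjusted p under 0.05 there were 7 members in edgeR (17.9%), all lower in the libraries labelled iFAXLKO, against 7.38% of all genes, or 3.54% in that direction and 3.84% in the other. They were 8 in DESeq2, against 8.30% of all genes, and 5 (12.8%) in limma-voom, against 11.4%, so that in the last the share was near that of all genes. The CPM ranges of the groups overlapped for each of the 39, while they did not for 0.434% of all genes (0.195% lower and 0.240% higher).

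The direction was shared all the same. The log2 fold change was negative for 36 of 39 members and for 53.6% of all genes, with a median of -0.14 (from -0.27 to 0.16) against -0.01. The 3 positive values were those of Psmb10, Psme2 and Psme1, the members tied to interferon. By role, the median was -0.21 for the ATPases, -0.19 for the other base subunits, -0.17 for the lid, -0.13 for the alpha ring, -0.11 for the beta ring, -0.09 for the base chaperones and -0.03 for the activators. Without WT replicate 2 the median over the members was -0.03, 28 of 39 values were negative where 48.5% of all genes were, and by role the medians were, in the same order, -0.10, -0.15, -0.06, -0.02, 0.04, -0.03 and 0.04. Leaving out 1 WT library thus took most of the difference from the median over all members, moved that of the other base subunits little and turned the sign for the beta ring and the activators. With limma-voom and sample weights, which used all 13 libraries, the median was -0.04 and 28 of 39 values were negative, where 50.3% of all genes were.

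**Figure D3:**
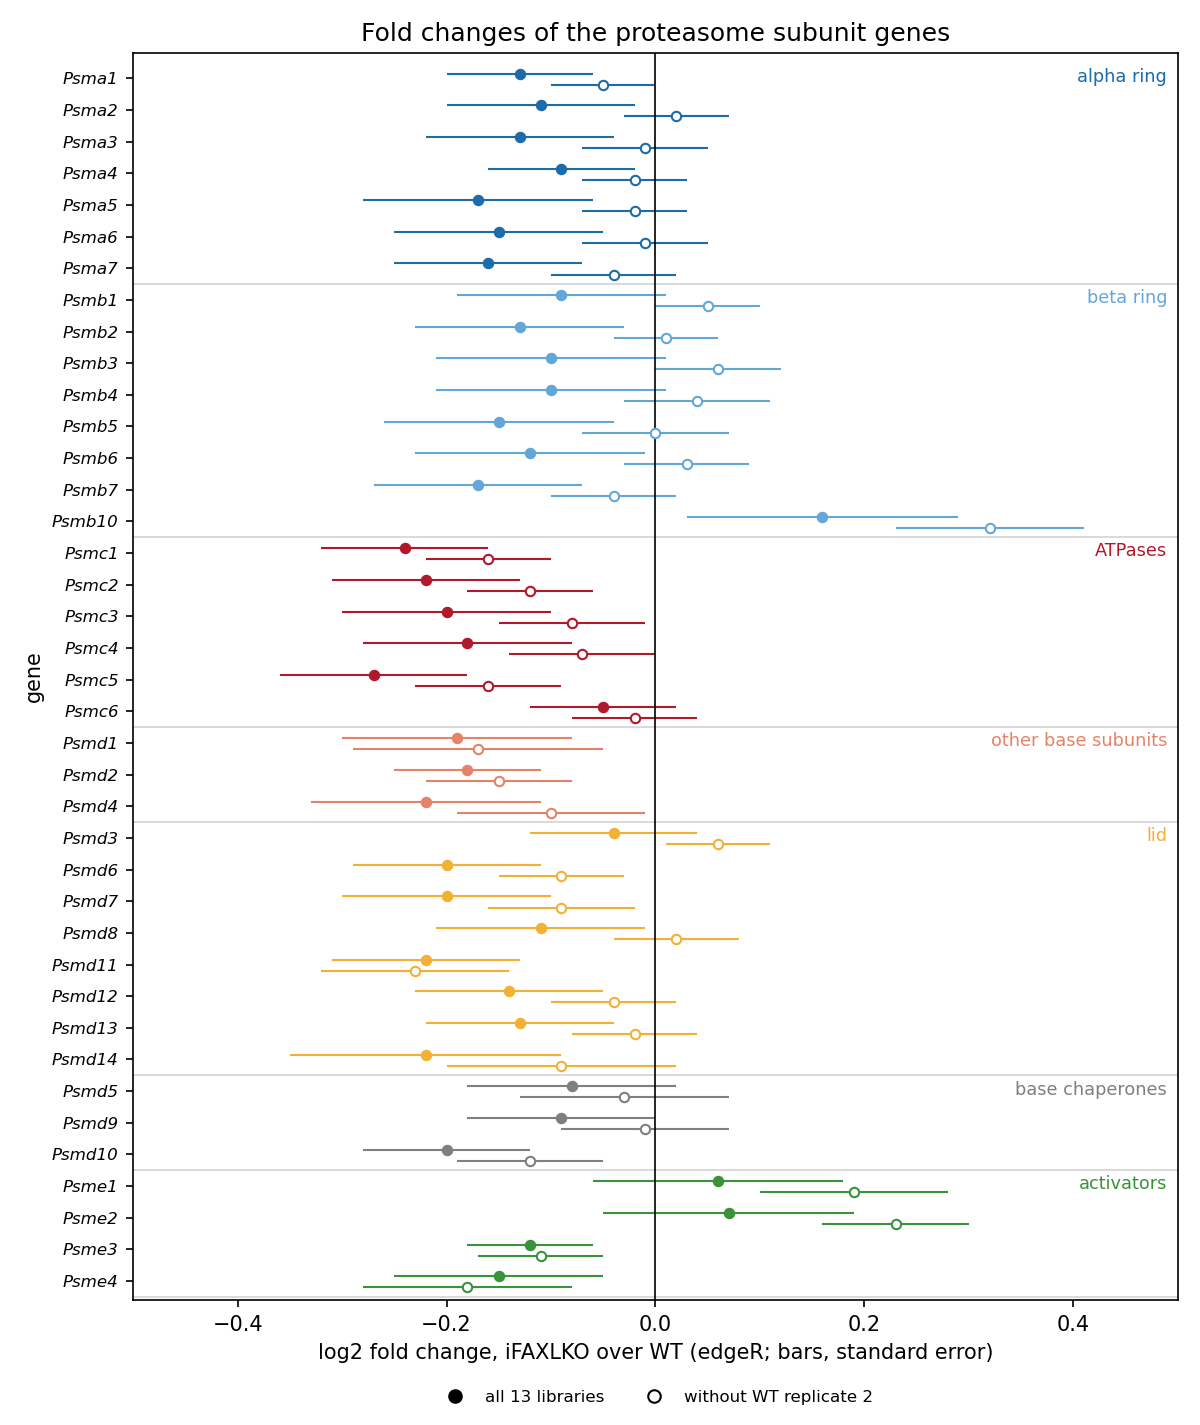
Log2 fold change (libraries labelled iFAXLKO over WT, edgeR, bars for the standard error) of the 39 tested genes in the order of their roles, with all 13 libraries (filled) and without WT replicate 2 (open). Leaving out that library moves the genes of the barrel to about 0, leaves the ATPases, base and part of the lid below it, and moves Psmb10, Psme1 and Psme2 further above it.

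In the barrel, the 3 standard cutting subunits had like values. Psmb5 (ENSMUSG00000022193, chromosome 14, 54614119 to 54618022), the chymotrypsin-like subunit, had a lowest, median and highest level of 74.4, 81.9 and 88.8 CPM in the libraries labelled iFAXLKO and 77.2, 125, 89.2, 78.2 and 82.6 CPM in WT replicates 1 to 5. Psmb6 (ENSMUSG00000018286, chromosome 11, 70525367 to 70527858), the caspase-like subunit, had 99.4, 103 and 116 CPM in the former and 92.5, 158, 105, 106 and 105 CPM in the latter. Psmb7 (ENSMUSG00000026750, chromosome 2, 38588036 to 38644087), the trypsin-like subunit, had 101, 114 and 122 CPM and 119, 170.4, 118, 115 and 115 CPM, and shares 405 exon bases with Nek6 on the other strand, so that its reads are uncertain where strand was not counted. In each of these genes the WT values other than that of replicate 2 lay inside or next to the range of the other group. Their log2 fold changes were -0.15 (SE 0.11), -0.12 (SE 0.11) and -0.17 (SE 0.10), with edgeR adjusted p-values of 0.811, 0.872 and 0.739, and without WT replicate 2 they were -0.00, 0.03 and -0.04.

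Psmb10 (ENSMUSG00000031897, chromosome 8, 105935735 to 105938444), the inducible trypsin-like subunit, had 16.4, 20.7 and 22.5 CPM as its lowest, median and highest level in the libraries labelled iFAXLKO. The WT libraries had 13.7, 25.5, 17.8, 16.7 and 15.6 CPM. Of the former, 7 of 8 were above the WT mean, and WT replicate 2 was again the highest of all. The log2 fold change was 0.16 (SE 0.13, edgeR adjusted p 0.854), and 0.32 (SE 0.09, p 0.00411, adjusted p 0.241) without WT replicate 2.

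In the alpha ring, which has no cutting site, the lowest and the highest fold change belonged to Psma5 and Psma4. Psma5 (ENSMUSG00000068749, chromosome 3, 108256926 to 108279974) had 22.1, 24.3 and 26.7 CPM at the lowest, median and highest of the libraries labelled iFAXLKO and 25.1, 39.03, 25.2, 24.5 and 24.6 CPM in WT. Psma4 (ENSMUSG00000032301, chromosome 9, 54950790 to 54958030) had 65.4, 68.0 and 75.3 CPM and 69.9, 87.8, 70.6, 70.5 and 68.3 CPM. Apart from replicate 2, the WT values of Psma5 were close to each other and all below the highest library of the other group. The log2 fold changes were -0.17 (SE 0.11) and -0.09 (SE 0.07), and -0.02 and -0.02 without WT replicate 2.

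The base of the regulatory particle carried 4 of the 7 members with an unadjusted p under 0.05. Psmc1 (ENSMUSG00000021178, chromosome 12, 100110154 to 100123405), an ATPase subunit, had 51.2, 54.5 and 58.8 CPM as its lowest, median and highest level in the libraries labelled iFAXLKO and 68.3, 78.8, 58.4, 58.8 and 61.5 CPM in WT replicates 1 to 5. All 8 of the former were below the WT mean and 5 of 8 below the lowest WT library. The mean was 55.3 ± 3.11 CPM in the libraries labelled iFAXLKO and 65.2 ± 8.57 CPM in WT (SD, n = 8 and 5), the log2 fold change -0.24 (SE 0.08), the edgeR p 0.00821 and adjusted p 0.49, and the exact permutation p 0.00622, unadjusted. Within the lower and upper range of library numbers, the difference in mean log2 CPM was -0.41 and -0.11.

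Psmc5 (ENSMUSG00000020708, chromosome 11, 106256154 to 106263120), another ATPase, had the lowest fold change of all members. Its lowest, median and highest level was 58.9, 61.7 and 73.3 CPM in the libraries labelled iFAXLKO, where replicates 3 and 5 stood above the other 6, and WT had 74.2, 98.6, 70.2, 71.4 and 70.7 CPM. The log2 fold change was -0.27 (SE 0.09, edgeR p 0.0115, adjusted p 0.512, exact permutation p 0.014). Psmc2 (ENSMUSG00000028932, chromosome 5, 21785283 to 21803787) had 51.8, 56.2 and 61.6 CPM and, in WT, 61.7, 84.1, 63.1, 56.4 and 63.1 CPM, with a log2 fold change of -0.22 (SE 0.09, edgeR p 0.0217, adjusted p 0.573, exact permutation p 0.00699). Without WT replicate 2 the values were -0.16 for Psmc1, -0.16 for Psmc5 and -0.12 for Psmc2, of which the first 2 kept an unadjusted p under 0.05. Psmc6, the ATPase at the other end, had 66.0, 70.6 and 80.5 CPM and 71.9, 80.3, 76.0, 69.8 and 74.8 CPM, and a log2 fold change of -0.05 (SE 0.07), or -0.02 without that library. It was the only 1 of the 39 with its highest level in a library labelled iFAXLKO, replicate 7.

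Psmd2 (ENSMUSG00000006998, chromosome 16, 20651652 to 20663414), the base scaffold that receives ubiquitin carriers, had 118, 129 and 139 CPM in the libraries labelled iFAXLKO and 159.5, 160.2, 127, 135 and 156 CPM in WT. Here WT replicates 1, 2 and 5 were alike and above every library labelled iFAXLKO, and replicates 3 and 4 were inside their range. The log2 fold change was -0.18 (SE 0.07, edgeR p 0.0266, adjusted p 0.614, exact permutation p 0.0218), and -0.15 without WT replicate 2, so that this library moved it little. Psmd4 (ENSMUSG00000005625, chromosome 3, 95032694 to 95042614), a ubiquitin receptor of the base, had 85.3, 98.2 and 118 CPM and 104, 151, 116, 103 and 101 CPM, with a log2 fold change of -0.22 (SE 0.11) and of -0.10 without that library.

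In the lid, Psmd11 (ENSMUSG00000017428, chromosome 11, 80428615 to 80473248), a structural subunit known to hold lid and barrel together, was little tied to WT replicate 2. It had 50.5, 60.6 and 75.6 CPM at the lowest, median and highest of the libraries labelled iFAXLKO, and 7 of 8 of these, all but replicate 5, were below the lowest WT library. WT had 78.3, 71.4, 67.7, 69.7 and 74.0 CPM. The mean was 61.8 ± 7.76 CPM in the libraries labelled iFAXLKO and 72.2 ± 4.13 CPM in WT (SD, n = 8 and 5), and the log2 fold change was -0.22 (SE 0.09, edgeR p 0.0214, adjusted p 0.571, exact permutation p 0.0218) with all libraries, -0.23 without WT replicate 2 and -0.24 within each range of library numbers. Psmd6 (ENSMUSG00000021737, chromosome 14, 14112174 to 14120984), another structural subunit, had 36.7, 40.5 and 42.4 CPM and 46.5, 59.1, 40.5, 40.2 and 42.3 CPM, with a log2 fold change of -0.20 (SE 0.09, edgeR p 0.0398, adjusted p 0.641, exact permutation p 0.028) that became -0.09 without WT replicate 2. Psmd14 had 35.5, 42.9 and 46.0 CPM and 51.2, 65.1, 33.2, 39.4 and 52.7 CPM. Its WT values spanned the whole range of the other group, from below its lowest library to above its highest, and its log2 fold change was -0.22 (SE 0.13, adjusted p 0.745), and -0.09 without WT replicate 2. Psmd3, a structural subunit at the upper end of the lid, had 102, 109 and 116 CPM and 107, 142, 101, 102 and 107 CPM, and a log2 fold change of -0.04 (SE 0.08), or 0.06 without that library.

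Of the chaperones that assemble the base, Psmd10 (ENSMUSG00000031429, chromosome X, 140948429 to 140956728), also known as gankyrin, had 11.7, 12.4 and 14.4 CPM in the libraries labelled iFAXLKO and 14.1, 17.8, 13.8, 13.3 and 13.6 CPM in WT. All 8 of the former were below the WT mean and 6 of 8 below the lowest WT library. The log2 fold change was -0.20 (SE 0.08, edgeR p 0.0324, adjusted p 0.628, exact permutation p 0.0148), and -0.12 without WT replicate 2. Psmd5 had 17.7, 23.3 and 25.7 CPM and 23.2, 26.9, 23.3, 21.1 and 23.1 CPM, with replicates 3 and 5 of the libraries labelled iFAXLKO lowest, and a log2 fold change of -0.08 (SE 0.10), or -0.03 without WT replicate 2.

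The activators split by kind. Psme2 (ENSMUSG00000079197, chromosome 14, 55587441 to 55591113), the beta subunit of PA28, had 74.1, 82.6 and 85.7 CPM as its lowest, median and highest level in the libraries labelled iFAXLKO and 60.3, 111, 71.5, 78.9 and 64.8 CPM in WT. Its partner Psme1 (ENSMUSG00000022216, chromosome 14, 55578123 to 55581529), the alpha subunit, had 39.1, 45.6 and 52.1 CPM and 36.8, 60.0, 38.1, 45.2 and 40.6 CPM. In both, WT replicate 1 was the lowest and WT replicate 2 the highest of the 13 libraries. The log2 fold changes were 0.07 (SE 0.12) and 0.06 (SE 0.12), with edgeR adjusted p-values of 0.951 and 0.96, and without WT replicate 2 they were 0.23 (SE 0.07, p 0.00614, adjusted p 0.258) and 0.19 (SE 0.09, p 0.0483, adjusted p 0.416). Psme4 (ENSMUSG00000040850, chromosome 11, 30771726 to 30880361), which encodes PA200, had 69.3, 89.3 and 94.1 CPM and 111, 85.9, 82.3, 83.3 and 109.6 CPM, with WT replicates 1 and 5 above all other libraries and a log2 fold change of -0.15 (SE 0.10), or -0.18 without WT replicate 2.

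Of the 39 members, 7 (17.9%) again had an unadjusted p under 0.05 without WT replicate 2, against 12.0% of all genes, and 0 an adjusted p under 0.05, against 0.142%. Those lower in the libraries labelled iFAXLKO were Psmc1, Psmc5, Psmd2 and Psmd11, or 4 (10.3%), against 6.33% of all genes. Those higher were Psmb10, Psme1 and Psme2, or 3 (7.69%), against 5.62% of all genes. The first 4 are parts of the regulatory particle, and the other 3 belong to the interferon-inducible forms. These shares are not far above those of all genes, and a split by place in the particle was not tested. In the fit with all 13 libraries, the count of 7 was 4 without the library labelled iFAXLKO replicate 4 and 12 without WT replicate 4, and with a fibroblast score as a covariate it was 0. The fibroblast markers were themselves higher in the libraries labelled iFAXLKO (median log2 fold change 0.66), so that score overlaps with group. The shares of all genes in these fits are not given here, so these counts are not read as a result about the members.

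Since subunits that replace each other occupy the same place in the particle, their CPM ratio within a library was compared, which does not depend on how libraries are scaled. There were 4 ratios, tested by an exact permutation test over all 1287 assignments of group labels, 2-sided, with the smallest possible p at 0.000777 and Benjamini-Hochberg adjustment over the 4. The ratio of Psmb10 to Psmb7 was 13.8%, 18.1%, 17.4%, 18.6%, 14.8%, 19%, 22.2% and 17.5% in the libraries labelled iFAXLKO, in replicate order, and 11.5%, 15%, 15.1%, 14.6% and 13.5% in WT. Of the former, 6 of 8 were above the highest WT library, and replicates 1 and 5 were inside the WT range. The means were 17.6 ± 2.58% (SD, n = 8) and 13.9 ± 1.48% (SD, n = 5), which is a log2 difference of 0.33 (exact permutation p 0.0124, adjusted p 0.0357). The ratio thus rose in the libraries labelled iFAXLKO, at an adjusted p that went above 0.05, to between 0.0505 and 0.0808, without iFAXLKO replicate 2, 3, 4, 6 or 8 or WT replicate 1, 3, 4 or 5.

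The ratio of Psmb8 to Psmb5, the chymotrypsin-like pair, also rose, and lost its call without the same 9 libraries, with adjusted p-values over the same range. It was 13.1%, 18.7%, 13.7%, 18.9%, 15.5%, 21.1%, 26.8% and 18.2% in the libraries labelled iFAXLKO and 13.2%, 11%, 13.1%, 15.2% and 12.1% in WT. Here too 6 of 8 were above the highest WT library, and replicate 7 stood far above the rest. The means were 18.2 ± 4.41% (SD, n = 8) and 12.9 ± 1.55% (SD, n = 5), a log2 difference of 0.47 (exact permutation p 0.0179, adjusted p 0.0357). Psmb8 itself had a mean of 14.8 ± 3.06 CPM in the libraries labelled iFAXLKO and 11.5 ± 1.49 CPM in WT (SD, n = 8 and 5). On the log2 scale it differed by 0.36 (SE 0.14), at an adjusted p of 0.551 in edgeR.

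The other 2 ratios did not pass. For Psmb9 to Psmb6, the caspase-like pair, the means were 9.68 ± 2.7% (SD, n = 8) and 7.47 ± 0.862% (SD, n = 5), with a log2 difference of 0.33 (exact permutation p 0.0909, adjusted p 0.121) and 5 of 8 libraries above the highest of WT. For Psme1 to Psme3, the interferon-inducible to the constitutive activator, they were 63.5 ± 5.06% (SD, n = 8) and 56.4 ± 12.2% (SD, n = 5), with a log2 difference of 0.19 (exact permutation p 0.121, adjusted p 0.121). WT replicate 2 had the highest ratio of all there, at 74.2%, and without it the difference was 0.30 (exact permutation p 0.0101, adjusted p 0.0404).

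Without WT replicate 2, the differences of the first 2 ratios were 0.36 (adjusted p 0.0444) and 0.41 (adjusted p 0.0485), so that these do not rest on that library. Within the lower and the upper range of library numbers they were 0.36 and 0.33 for Psmb10 to Psmb7, and 0.40 and 0.57 for Psmb8 to Psmb5. In the fits that lost the call, the differences were 0.27 to 0.36 for the first and 0.44 to 0.53 for the second. Removing a library also leaves fewer assignments to compare, which raises the smallest p.

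**Figure D4:**
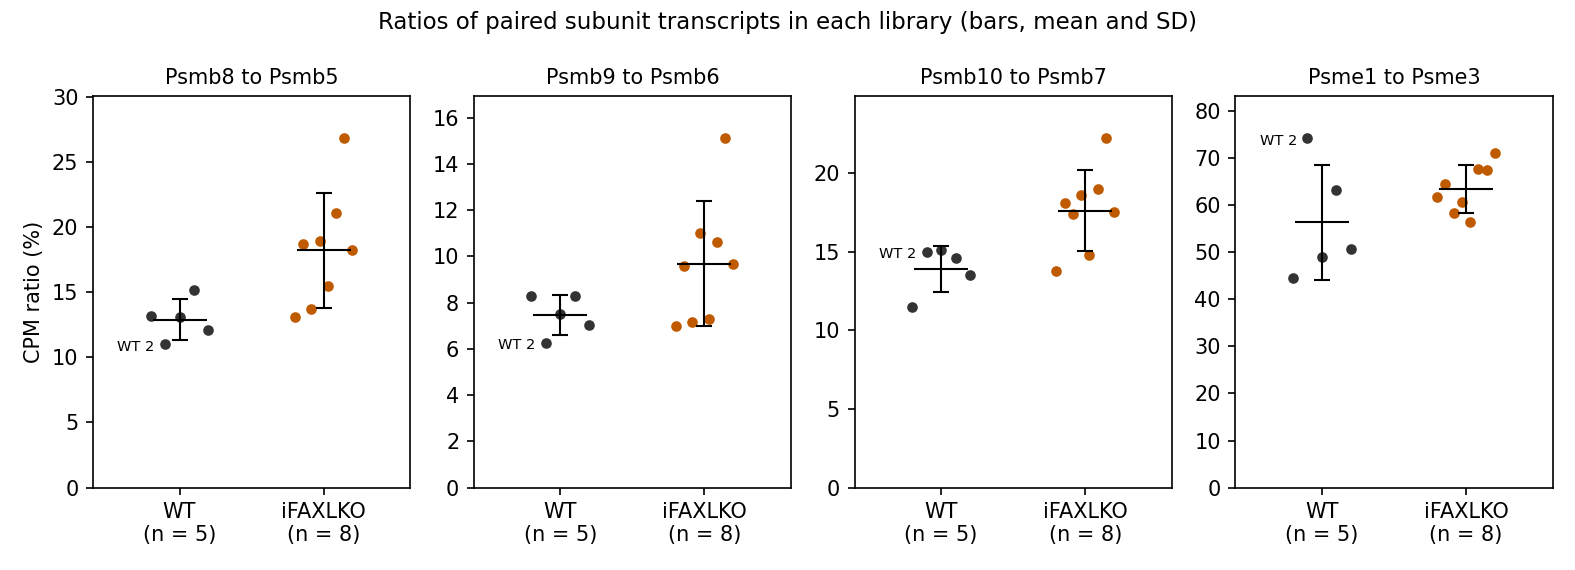
CPM of an inducible or alternative subunit as a percent of the CPM of its counterpart in each library, for 4 pairs, with bars at the mean and SD of 5 WT and 8 libraries labelled iFAXLKO. For Psmb8 to Psmb5 and Psmb10 to Psmb7, 6 of 8 libraries labelled iFAXLKO lie above every WT library, and WT replicate 2 is the lowest WT library for Psmb8 to Psmb5 and Psmb9 to Psmb6 and the highest of all for Psme1 to Psme3.

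Markers of macrophages, fibroblasts and red cells had values in the same direction as these ratios. Endothelial markers were positive in 3 of 4 (median log2 fold change 0.12), and brown adipocyte markers were negative in 8 of 11 (median -0.08). Without WT replicate 2 the endothelial median was 0.07. The brown adipocyte median was then 0.05, with 5 of 11 values negative, so its sign rested on that library. The 8 macrophage markers all had positive log2 fold changes (median 0.40) and an unadjusted p under 0.05, with 0 past the adjusted limit, and their sum was 143.8 to 269.9 CPM in the libraries labelled iFAXLKO and 118.3 to 170.5 CPM in WT. The highest sum was that of iFAXLKO replicate 7, which also had the highest ratios of Psmb8, Psmb9 and Psmb10 to their counterparts. The lowest sum among the libraries labelled iFAXLKO, 143.8 CPM, was that of replicate 6. Its ratios of Psmb8 to Psmb5 (21.1%) and of Psmb10 to Psmb7 were the highest after those of replicate 7. Replicate 1 had the next lowest sum of the libraries labelled iFAXLKO, 159.6 CPM. It had the lowest ratios among them, 13.1% for Psmb8 to Psmb5 and 13.8% for Psmb10 to Psmb7. Whether the ratios follow the macrophage sum was not tested. The 7 fibroblast markers likewise had an unadjusted p under 0.05 (median 0.66, 0 past the adjusted limit), with sums of 514.6 to 1157 CPM and 377.0 to 677.0 CPM. The 5 erythroid markers were all positive (median 0.34, 1 at an unadjusted p under 0.05), and without WT replicate 2 their median was 0.62 and 5 of 5 had an unadjusted p under 0.05, with 0 past the adjusted limit in either fit. Lymphocyte markers were all under the filter, at sums of 1.995 to 7.982 CPM and 1.347 to 23.44 CPM, with Cd3d at 0 in a library. Of the 14 skeletal muscle markers, 13 had a negative log2 fold change (median -0.26, and -0.00 without WT replicate 2), and their sum ran from 10.63 to 5731 CPM and from 29.55 to 3991 CPM, with Tcap at 0 in a library. None of the macrophage, fibroblast or erythroid markers was at 0 in any library, and their part in the ratios was not tested.

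The other genes of antigen presentation that answer to interferon had the same sign. All 11 listed, which include Psmb8 and Psmb9, had positive log2 fold changes (median 0.27 where that of all genes was -0.01), with 4 at an unadjusted p under 0.05, 0 past the adjusted limit and 8 of 8 libraries above the WT mean for 3 of these 4. H2-D1 and H2-K1, the heavy chains that carry the peptides to the surface, had means of 375.0 ± 38.7 and 311.4 ± 44.7 CPM (SD, n = 8), where WT had 312.0 ± 32.8 and 254.7 ± 33.1 CPM (SD, n = 5). Their log2 fold changes were 0.27 (SE 0.09) and 0.29 (SE 0.11), with edgeR adjusted p-values of 0.512 and 0.55. Irf1, a transcription factor induced by interferon, had one of 0.28 (edgeR adjusted p 0.49). Without WT replicate 2 the median of the list was 0.28.

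The regulators of proteasome genes had a median near that of all genes. Of 16 genes, 0 had an unadjusted p under 0.05 and the median log2 fold change was -0.03. Without WT replicate 2 the median was -0.04, with 12 of 16 values negative. In that fit 1 of the 16 had an unadjusted p under 0.05, where 12.0% of all genes did. It was Ddi2, with a log2 fold change of -0.22 (edgeR p 0.0116, adjusted p 0.294). Nfe2l1 had a mean of 515 ± 50.7 CPM in the libraries labelled iFAXLKO and 560.0 ± 61.0 CPM in WT (SD, n = 8 and 5), with a log2 fold change of -0.12 (SE 0.09) and an edgeR adjusted p of 0.833, and in WT replicate 2 its CPM was 0.971 times the median of the other libraries. Its relative Nfe2l2 had a log2 fold change of 0.07 (SE 0.10) and a ratio of 1.09 in that library. In the library in which most subunits were highest, the transcripts of both factors were near their usual level. Over the whole list the ratio ran from 0.711 for Nfya to 1.25 for Nfyc, with Ddi2 at 0.794 and Vcp at 1.24. What part the regulators have in that library was not tested, and the counts do not show the level or activity of their proteins. Ngly1, the enzyme that removes sugars from NFE2L1, had the smallest p of the list, with a log2 fold change of -0.13 (SE 0.07, edgeR p 0.0859, adjusted p 0.721).

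The assembly and accessory factors followed the subunits. Of the 21 found of 22 listed, 20 had a negative log2 fold change, with a median of -0.11, and 4 had an unadjusted p under 0.05, all lower in the libraries labelled iFAXLKO, with 0 past the adjusted limit. Pomp, which builds the barrel, had a mean of 53.9 ± 3.02 CPM in the libraries labelled iFAXLKO and 59.3 ± 13.4 CPM in WT (SD, n = 8 and 5). Its log2 fold change was -0.14 (SE 0.10), and it stood high in WT replicate 2, as the barrel subunits did, at 1.57 times the median of the others. Without that library its log2 fold change was 0.01. Ubqln1, a shuttle that brings ubiquitin-tagged proteins to the proteasome, had a mean of 126 ± 12.6 CPM in the libraries labelled iFAXLKO and 155 ± 18.3 CPM in WT (SD, n = 8 and 5). Its log2 fold change was -0.30 with all libraries (edgeR p 0.00399, adjusted p 0.436) and -0.31 without WT replicate 2. Uchl5, a deubiquitinase of the base, had a log2 fold change of -0.20 (SE 0.08, p 0.0202, adjusted p 0.561). Without WT replicate 2 the median of the list was -0.05, with 12 of 21 values negative.

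Of the 18 genes of ubiquitin and of the enzymes that activate and pass it on (E1 and E2), 0 had an unadjusted p under 0.05 and the median log2 fold change was -0.07. Without WT replicate 2 the median was -0.05, and 1 of the 18 had an unadjusted p under 0.05, where 12.0% of all genes did. Ubb, a polyubiquitin gene, had a mean of 186 ± 45.4 CPM in the libraries labelled iFAXLKO and 192 ± 10.96 CPM in WT (SD, n = 8 and 5), with a log2 fold change of -0.05 (SE 0.15) and an edgeR adjusted p of 0.976. Cdc34, an E2 enzyme, had one of -0.26 (SE 0.13), which was -0.08 without WT replicate 2, where it stood at 1.75 times the median of the other libraries.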

How the data were processed

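RNA from snap-frozen iBAT samples, 8 labelled iFAXLKO and 5 labelled WT, was sequenced in bulk, 1 library per labelled replicate. The authors deposited raw counts per gene and library, not normalized. The submitters' processing notes name bcl2fastq 2.20, fastp 0.20.0, STAR 2.7.4a, DESeq2 and build GRCm38.p6, whereas the study's methods name Trim Galore and hisat2, and give rRNA depletion where the labels give polyA RNA. The counting tool and strand setting are not given in the sources used here, so reads in overlapping genes (Psmb7 with Nek6, Psmd13 with Sirt3, Psmd1 with Gm21972 and others) are uncertain.

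From the deposited counts, genes above 1 CPM in at least 5 of the 13 libraries were kept (13360 of 42416), scaled by TMM and fitted with the robust quasi-likelihood test of edgeR 4.0.16 in R 4.3.3, with group as the only term. The Benjamini-Hochberg adjustment ran over all genes tested, and the limit was 0.05. CPM values use TMM-scaled library sizes, and the standard error is the log2 fold change divided by the root of F. Alternatives used DESeq2 1.42.0 and limma 3.58.1 (voom). Exact permutation tests were 2-sided and ran over all 1287 splits. The fits were tested on simulated data. There edgeR called 90.5% of the genes with a log2 change of 1 and 35.0% of those with 0.5. Changes as small as those of the members (from -0.27 to 0.16) were not simulated, so 0 members called does not show that none changed. Depth was 22.44 to 32.6 M counts per library, and a count of 3 in a library, the detection floor, came to 0.092 to 0.1337 CPM, counting error only. The lowest chi-square per degree of freedom between libraries of a group was 16.56, so none was a repeat of another. The labels number the replicates without naming the mouse, and p-values measure the spread between these libraries. The lower and the upper range of library numbers (6 and 7 libraries) come from the sample labels.

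Replicate numbers are shared between the groups, and the correlations of the deviations of same-numbered libraries from their group means were 0.39, 0.42, 0.19, 0.18 and -0.61. Since 4 of the 5 were positive and 1 ran the other way, and the labels name no shared animal, litter or day, the numbers were not used as pairs.

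The members and the gene lists were chosen with earlier results of these data known. Values per library are given for the cutting subunits, for members with an unadjusted edgeR p under 0.05 and for the highest and lowest log2 fold change of each role. Of the other lists, Nfe2l1, Nfe2l2, Pomp and Ubb are named, with up to 3 more per list by smallest p. Some genes that this rule would name are not reported here. Fits without WT replicate 2 of the gene lists, the spread and the role medians were added after seeing the data. Promoters of Psmb1, Psmb2, Psmb7, Psmc3, Psmd3, Psmd7 and Psma8 were not used here.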

Additional observations from a re-analysis of the deposited data

Results flagged for a closer look

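Within each group, the highest and the lowest library of a gene were compared with the rest by Dixon's ratio, with critical values of 0.71 for the 5 WT and 0.526 for the 8 libraries labelled iFAXLKO. Chance takes about 1 in 20 groups past it, and 24 of the 90 groups tested passed it, of which 22 had WT replicate 2 as the highest library. That library was also the highest of the 13 for 25.5% of all genes tested. The share of all genes that pass this rule is not given here. The 24 flags are therefore not set against a background of all genes, and they are not read as particular to the members. The genes share libraries, so these are not separate events.

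In WT replicate 2, the whole alpha ring passed, with Psma1 at 136.0 CPM, Psma2 at 122.2 CPM, Psma3 at 97.92 CPM, Psma4 at 87.75 CPM, Psma5 at 39.03 CPM, Psma6 at 153.8 CPM and Psma7 at 106.3 CPM. So were the constitutive subunits of the beta ring, with Psmb1 at 129.3 CPM, Psmb2 at 99.83 CPM, Psmb3 at 112.7 CPM, Psmb4 at 138.3 CPM, Psmb5 at 124.7 CPM, Psmb6 at 158.2 CPM and Psmb7 at 170.4 CPM. Of the ATPases, Psmc2 stood at 84.14 CPM, Psmc3 at 125.4 CPM and Psmc5 at 98.57 CPM. Of the lid, Psmd3 stood at 142.1 CPM, Psmd7 at 82.19 CPM and Psmd8 at 245.3 CPM, and of the base chaperones Psmd10 at 17.78 CPM. The summed CPM of the members was 3898 there. All 14 constitutive subunits of the barrel were thus far above their other WT values in the same library, and Psmb10, the activators and the remaining lid and base genes did not pass it there.

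The others were single genes. Psmb6 was highest in iFAXLKO replicate 3, at 116.4 CPM, and Psmd13 in iFAXLKO replicate 2, at 56.47 CPM, each far from the other 7 libraries of the group.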

How the results depend on the processing

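0 members passed an adjusted p under 0.05 under each of the 14 alternatives and in each fit that left out 1 library, and the median log2 fold change of the members was negative in all of them, from -0.15 to -0.04 (the last with limma-voom) and, without 1 library, from -0.18 to -0.03. The genes called over the whole table were 17, against 67 with DESeq2, 7 with protein-coding genes alone, 9 with the fibroblast score as a covariate and 7 with the replicate block. The members with an unadjusted p under 0.05 were 7, against 3 with library sizes that left out the 10 most abundant and the mitochondrial genes, 0 with the fibroblast score, and 4 to 12 without 1 library. Apart from the fit without WT replicate 2, the shares of all genes in these fits are not given. The fibroblast score overlaps with group, so these counts are not read as a result about the members. Pairing by replicate number used 10 libraries: 3 members had an unadjusted p under 0.05 with the replicate block and 2 without the block, and Psme1 had -0.03 and -0.05. Only the libraries numbered 1 and 2 correlated best with their own number.

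Few signs turned. With limma-voom, Psmb1, Psmb2, Psmb4 and Psmd8 each had 0.02, Psmb3 0.05 and Psmd3 0.06. Psmd3 had 0.02 with the other library sizes, under which the median of all genes was 0.04, and 0.01 with the fibroblast score, where Axl had -0.16 and Psmb9 -0.01. Without 1 library, the log2 fold changes ran from -0.17 to 0.04 for Psmb4, -0.19 to 0.01 for Psmb2, -0.16 to 0.02 for Psmd8, -0.18 to 0.03 for Psmb6, -0.16 to 0.06 for Psmb3, -0.07 to 0.06 for Psmd3, -0.14 to 0.02 for Psma2, -0.13 to 0.05 for Psmb1 and -0.01 to 0.23 for Psme2. Each positive end was the fit without WT replicate 2. The ratio differences ran from 0.27 to 0.38 for Psmb10 to Psmb7, 0.39 to 0.53 for Psmb8 to Psmb5 and 0.12 to 0.30 for Psme1 to Psme3. The causes were not tested. Each tested member had at least 305 reads in every library, and what depth could add was not tested.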
